A study of Mus musculus with 9 samples.

Results

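Integrins are receptors that hold cells to the extracellular matrix and to other cells. Each consists of an alpha and a beta chain, and the pair decides which ligand is bound. In bone marrow, integrins of haematopoietic stem and progenitor cells bind VCAM1, fibronectin, laminin and collagen of the niche and take part in homing and retention, while the leukocyte integrins share the beta chain Itgb2. The 10 integrin genes described here are the alpha chains Itga2, Itga4, Itga5, Itga6, Itga9 and Itgav and the beta chains Itgb1, Itgb2, Itgb5 and Itgb7. They were chosen by gene symbol, without the platelet chains CD41 (Itga2b) and CD61 (Itgb3), and are 10 of the 49585 genes in the count table.

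RNA was sequenced from 3 populations sorted out of mouse haematopoietic stem cell expansion cultures, with 3 libraries each and 9 in all. Every culture was wild type and began with CD34-CD150+KSL cells of C57BL/6 marrow (KSL stands for a Kit+, Sca-1+ cell without lineage markers). F12 medium held 0.1% polyvinyl alcohol, insulin-transferrin-selenium, thrombopoietin (100 ng/ml) and stem cell factor (10 ng/ml), and the labels disagree on the length of culture, stated as 10 days in one place and a week in another. Sorted groups were CD201+CD150+CD48-KSL (CD201+CD48- below), CD201+CD150+CD48+KSL (CD201+CD48+) and CD201-KSL (CD201-), with over 5000 cells per population. In the titles, though not in the other labels, that last gate also reads CD150+CD48+. No label ties a replicate to its own culture or animal, so p-values cover the spread among these libraries only, and that spread may be technical. No age or sex of the animals was stated.

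Library totals ranged from 3810123 to 7072885 counts, of which the 10 integrin genes drew 5373 to 9403. Levels are CPM, the counts scaled to library size with TMM (trimmed mean of M values) factors. RNA of CD201 and CD48, which set the groups apart, followed the labels. Procr, which encodes CD201, averaged 63.2, 26.5 and 3.56 CPM in the CD201+CD48-, CD201+CD48+ and CD201- libraries, and Cd48 5.86, 83.3 and 124.7 CPM. Genes of the other sorted antigens had their lowest mean in CD201- libraries. In the same order, Slamf1 (CD150) averaged 57.5 ± 1.05, 53.1 ± 5.82 and 47.1 ± 4.97 CPM (SD, n = 3). Kit averaged 509.2 ± 26.8, 467.7 ± 14.5 and 350.7 ± 20.1 CPM. Ly6a (Sca-1) averaged 21.7 ± 1.67, 16.0 ± 2.36 and 9.90 ± 4.02 CPM. CD201- replicate 3 stood apart, with a chi-square per degree of freedom of 13.0 and 12.4 against the other CD201- libraries, where every other pair of replicates gave 1.36 to 3.44. Summed over 12 megakaryocyte and platelet markers, none of them at 0 in a group, the level was 1653 to 1778 CPM in CD201+CD48-, 366.7 to 384.2 CPM in CD201+CD48+ and 628.1 to 733.7 CPM in CD201- libraries. Without the integrin chains Itga2b and Itgb3, a choice made after the data were seen, the sum of the other 10 was 1143 to 1198, 260.9 to 267.9 and 227.9 to 298.2 CPM. Of 10 HSC markers the sum was 1841 to 1935, 1324 to 1376 and 766.8 to 806.5 CPM, with Hoxb5 at 0 in CD201- libraries. These are bulk samples, in which fewer cells of a type and less RNA per cell cannot be told apart.

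Itgb5, Itga2, Itga5, Itga6 and Itgb2 differed between populations, and Itga4, Itga9, Itgav, Itgb1 and Itgb7 passed the test in none of the 3 comparisons. Itgb5 had the widest range, 15.4-fold from CD201- up to CD201+CD48- cells. All 10 genes passed the count filter, Itga2 through the CD201+CD48- libraries alone and Itga9 through CD201+ libraries alone. Set against the CD201- population, CD201+CD48- cells had 3 of the 10 higher (Itga2, Itga5, Itgb5) and 1 lower (Itgb2), by the quasi-likelihood F test of edgeR with p-values adjusted over all 11619 genes tested (Benjamini-Hochberg, threshold 0.05). The same test called 48.1% of all genes there, 24.2% higher and 23.9% lower, so the share of integrin genes called was near the background. CD201+CD48+ cells had 1 higher (Itgb5) and 2 lower (Itga6, Itgb2) than the CD201- population, where 29.1% of all genes were called, 14.8% higher and 14.3% lower. Of the CD201+ populations, the CD48- one had 4 higher (Itga2, Itga5, Itga6, Itgb5) and 0 lower, where 15.4% of all genes were called, 9.05% higher and 6.31% lower. That share, used for the lists below too, depends on CD201- replicate 3, a library of neither group. Without it the fit called 1822 higher and 1712 lower of 11794 genes. Replicates of the groups compared did not overlap for 6, 5 and 6 of the 10 genes in these comparisons, against 55.2%, 41.7% and 40.7% of all genes. The median log2 fold change of the 10 was 0.13, -0.03 and 0.22, against 0.0032, -0.0022 and -0.0054 over all genes. Each pair of comparisons shares the libraries of one population.

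**Figure D1:**
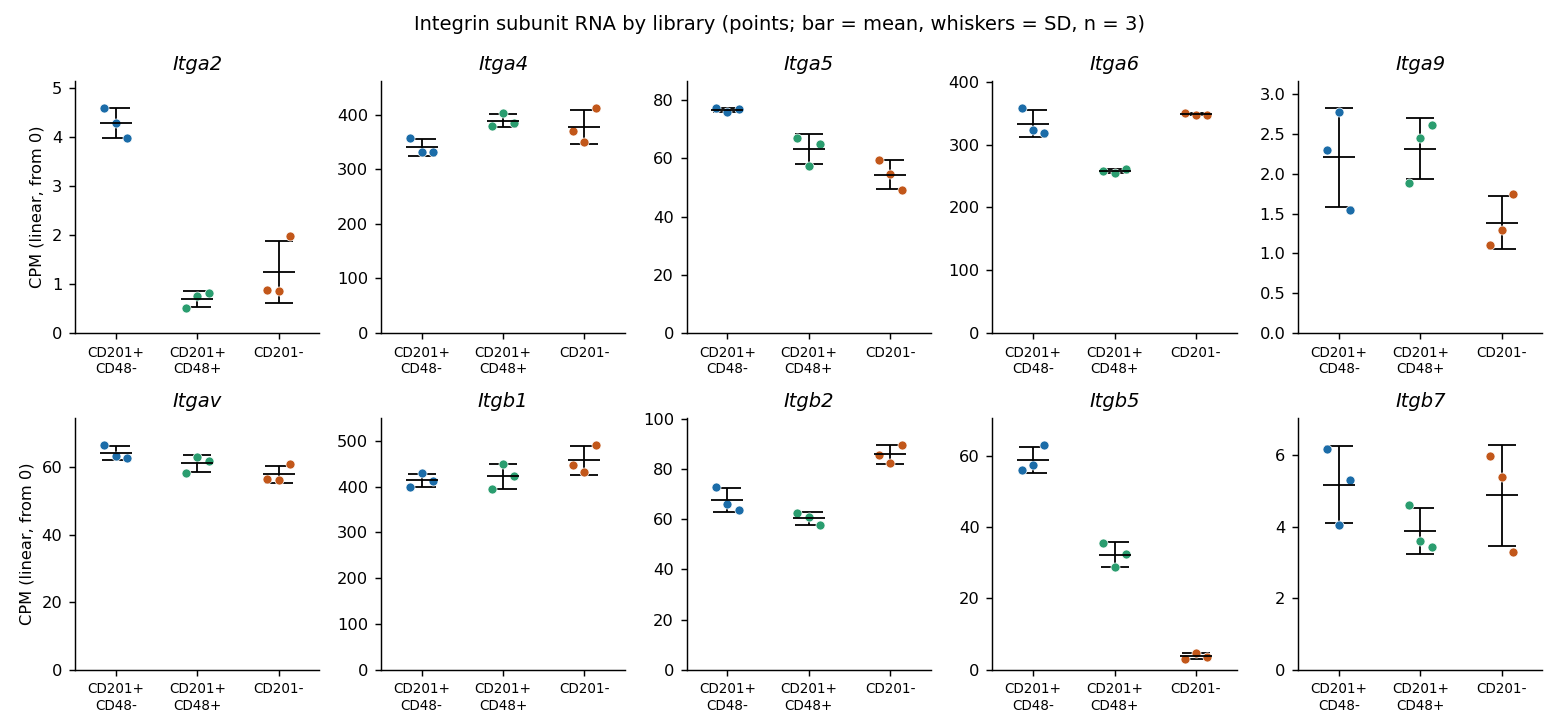
Level of each integrin gene in CPM (vertical axis, linear from 0, its own scale in each panel) in the 3 sorted populations (horizontal axis); points are the 9 libraries, the middle bar is the mean and whiskers are the SD of 3 replicates. Itgb5 steps down over the 3 populations without overlap, Itga2 is high in CD201+CD48- libraries, Itga6 is low in CD201+CD48+ libraries, and Itgb1 lies between 395.5 and 491.8 CPM in all 9.

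Promoter sequence is shown for Itgb5, Itga5 and Itga2, the genes that were called higher in CD201+CD48- cells than in each other population. For Itga5 the call over CD201+CD48+ cells was lost in 11 of 16 alternative fits. Each line gives the 250 bases before the annotated start, 5' to 3' on the strand of the gene, from the RefSeq promoter table for GRCm38.p6 (the assembly known as mm10), which held 8 of the 10 genes. Capitals mark the GC box, read on either strand.
Itgb5, chr16:33829415-33829664, plus strand: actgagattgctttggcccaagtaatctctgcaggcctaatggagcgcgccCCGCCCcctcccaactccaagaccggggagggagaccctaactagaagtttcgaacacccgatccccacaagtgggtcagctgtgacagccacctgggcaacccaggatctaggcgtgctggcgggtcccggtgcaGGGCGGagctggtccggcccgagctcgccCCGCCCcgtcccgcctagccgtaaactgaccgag
Itga5, chr15:103366792-103367041, minus strand: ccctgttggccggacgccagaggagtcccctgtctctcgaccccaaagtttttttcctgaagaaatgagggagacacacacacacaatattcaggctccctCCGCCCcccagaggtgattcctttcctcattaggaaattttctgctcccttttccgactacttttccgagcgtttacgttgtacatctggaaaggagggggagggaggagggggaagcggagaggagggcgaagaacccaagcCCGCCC
Itga2, chr13:114932101-114932350, minus strand: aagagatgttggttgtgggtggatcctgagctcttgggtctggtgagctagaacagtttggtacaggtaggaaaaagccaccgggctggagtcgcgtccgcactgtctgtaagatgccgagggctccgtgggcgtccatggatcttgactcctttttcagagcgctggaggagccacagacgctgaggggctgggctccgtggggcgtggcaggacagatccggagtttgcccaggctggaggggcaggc
Both strands of each window were searched for 6 motifs. These were GGGCGG for the GC box, present in 32.7% of all 32851 promoter windows of that length, AGATAA for GATA factors (9.99%) and TGTGGT for RUNX factors (14%). The others were CCGGAA for ETS factors (12%), CCAAT for the CCAAT box (33.8%) and TATAAA for the TATA box (12.4%). No matches overlapped. The Itgb5 window held 3 GC boxes, at 199, 63 and 34 bases before the start, and the Itga5 window held 2, at 149 and 6 bases before it. None of the 6 motifs was found in the Itga2 window. A GC box also lay in the windows of Itga4 and Itgb1, which passed no test, and a RUNX match in that of Itga4. GC content was 65.2% for Itgb5, 55.6% for Itga5 and 60.8% for Itga2, against a median of 52.4% over all windows. Integrin genes that passed no test were above that median too. Itgb1 had 68.0% and Itga4 64.0%. Itgav had 64.4%, Itga9 58.4% and Itgb7 56.0%, but their windows lie inside the gene spans given below, before a start within the gene.

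Itgb5 encodes a beta chain that pairs with the Itgav chain in a receptor for vitronectin and other ligands with an RGD motif. Its gene lies on chromosome 16, 33829665 to 33949338 (GRCm38.p6, as all positions here), and no other annotated gene overlaps it. CD201+CD48- replicates 1 to 3 stood at 56.1, 57.4 and 63.1 CPM, CD201+CD48+ replicates at 35.5, 28.7 and 32.6 CPM, and CD201- replicates at 3.10, 4.73 and 3.51 CPM. The 3 populations did not overlap, and the CD201- level rested on 14, 22 and 16 counts. Against the CD201- population the log2 fold change was 3.95 ± 0.16 for CD201+CD48- (SE; edgeR adjusted p = 7.1e-11) and 3.09 ± 0.17 for CD201+CD48+ (8.49-fold, adjusted p = 7.65e-09). Of the CD201+ populations the CD48- one was higher by 0.86 ± 0.11 (1.82-fold, adjusted p = 6.98e-05). These calls held in all 16 alternative fits, over which the values ran from 3.82 to 4.14, 2.96 to 3.28 and 0.78 to 0.93.

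Itgav (chromosome 2, 83722303 to 83806917), the partner chain of Itgb5 and of Itgb3, had no such step. Its level was 66.7, 63.4 and 62.7 CPM in CD201+CD48-, 58.4, 63.1 and 62.0 CPM in CD201+CD48+ and 56.4, 56.4 and 60.9 CPM in CD201- replicates 1 to 3. CD201+CD48- libraries lay just above CD201- libraries, and CD201+CD48+ libraries overlapped both. The log2 fold change was 0.15 ± 0.08 and 0.08 ± 0.08 over the CD201- population (SE; edgeR adjusted p = 0.148 and 0.501) and 0.07 ± 0.08 within CD201+ (adjusted p = 0.608). Scaled by library size alone, which moves the median of all genes by 0.17 in the first comparison, the first value was 0.32 (adjusted p = 0.00502).

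Itgb1 (chromosome 8, 128685654 to 128733579), the common beta chain of the laminin, collagen, fibronectin and VCAM1 receptors, passed in no comparison. CD201+CD48- replicates 1 to 3 held 400.2, 429.3 and 413.6 CPM, CD201+CD48+ replicates 395.5, 450.3 and 423.5 CPM and CD201- replicates 447.5, 432.7 and 491.8 CPM. All CD201+CD48- libraries lay below all CD201- libraries, CD201+CD48+ libraries overlapped both, and CD201- replicate 3 was the highest of all. The log2 fold changes were -0.14 ± 0.08 and -0.11 ± 0.08 over the CD201- population and -0.03 ± 0.08 within CD201+ (SE; edgeR adjusted p = 0.162, 0.32 and 0.854). Their sign turns under scaling by library size alone.

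Itga6 (chromosome 2, 71786886 to 71858427) encodes the alpha chain of laminin receptors, formed with the Itgb1 or Itgb4 chain, and marks the surface of many stem cells. Its RNA was lowest in CD201+CD48+ replicates 1 to 3, at 257.5, 254.9 and 260.3 CPM. CD201+CD48- replicates stood at 358.0, 322.9 and 318.4 CPM and CD201- replicates at 349.9, 346.4 and 347.6 CPM. All CD201+CD48+ libraries lay below the other 6, which overlapped among themselves. CD201+CD48+ cells differed from the CD201- population by -0.43 ± 0.07 on the log2 scale (SE; edgeR adjusted p = 0.000418), and the CD201+CD48- level was above theirs by 0.37 ± 0.07 (1.29-fold, adjusted p = 0.00258). Both calls held in all 16 alternatives. The remaining comparison gave -0.06 ± 0.07 (adjusted p = 0.509). The megakaryocyte and platelet marker sum given above was lowest in the same libraries with Itga2b and Itgb3 in it. Without them CD201+CD48+ and CD201- libraries overlapped, 9 of the other 10 markers had their lowest mean in CD201+CD48+ libraries, and Vwf did not (125.0 ± 9.63 CPM, against 65.5 ± 8.63 in CD201-; SD, n = 3). The part of these genes in the Itga6 result was not tested.

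Itga2 (chromosome 13, 114833081 to 114932100), the alpha chain of a collagen receptor found on platelets among other cells, was scarce. It drew 26, 17 and 18 counts in CD201+CD48-, 3, 4 and 6 in CD201+CD48+ and 4, 4 and 9 in CD201- replicates 1 to 3. In CPM these were 4.59, 4.30 and 3.99 in CD201+CD48-, 0.513, 0.756 and 0.825 in CD201+CD48+ and 0.885, 0.861 and 1.97 in CD201- libraries. All CD201+CD48- libraries lay above the other 6. Their log2 fold change was 1.78 ± 0.37 over the CD201- population (SE; 3.43-fold, edgeR adjusted p = 0.00109) and 2.57 ± 0.39 over CD201+CD48+ (5.94-fold, adjusted p = 0.000345). The gene passed the count filter through the CD201+CD48- libraries alone, so that its being tested rested on its level there. Without that filter the values were 1.76 (adjusted p = 0.000756) and 2.55 (adjusted p = 5.03e-06). The remaining comparison, -0.79 ± 0.51, did not pass (adjusted p = 0.261). The megakaryocyte and platelet marker sum was highest in the CD201+CD48- libraries too, with or without Itga2b and Itgb3, and its part in the Itga2 result was not tested.

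Itga5 (chromosome 15, 103344286 to 103366791), the alpha chain of the main fibronectin receptor, was highest in CD201+CD48- replicates 1 to 3, at 77.2, 75.8 and 76.8 CPM. CD201+CD48+ replicates held 67.1, 57.3 and 64.9 CPM and CD201- replicates 59.3, 54.7 and 49.3 CPM. CD201+CD48- libraries stood above the other 6, whose groups overlapped. The log2 fold change over the CD201- population was 0.49 ± 0.09 (SE; 1.41-fold, edgeR adjusted p = 0.000456) and passed in all 16 alternatives. Within CD201+ it was 0.28 ± 0.09 (1.21-fold, adjusted p = 0.0492), a call that 11 of the 16 alternatives lost, with adjusted p between 0.0051 and 0.217. Among these was the removal of any single library except CD201- replicates 1 and 3. CD201+CD48+ cells were not called over the CD201- population (0.22 ± 0.09, adjusted p = 0.0942).

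Itga4 (chromosome 2, 79255426 to 79333114) pairs with the Itgb1 chain to bind VCAM1 and fibronectin and with the Itgb7 chain to bind MAdCAM1, and is known for holding stem and progenitor cells in marrow. Its level was 358.0, 331.7 and 331.9 CPM in CD201+CD48-, 379.0, 402.5 and 385.5 CPM in CD201+CD48+ and 370.1, 350.1 and 412.4 CPM in CD201- replicates 1 to 3. CD201- libraries overlapped both CD201+ groups, while CD201+CD48- libraries all lay below CD201+CD48+ libraries. Within CD201+ the log2 fold change of -0.19 ± 0.08 did not pass (SE; edgeR adjusted p = 0.128). It passed without CD201- replicate 3 (-0.19, adjusted p = 0.00191) and in a fit of the 6 CD201+ libraries (-0.19, adjusted p = 0.00502), over an adjusted p of 0.00191 to 0.314 in all alternatives. Over the CD201- population it was -0.15 ± 0.08 and 0.04 ± 0.08 (adjusted p = 0.143 and 0.724).

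Itga9 (chromosome 9, 118606709 to 118901003), whose product pairs with the Itgb1 chain and binds tenascin and osteopontin, was scarce in every population. It drew 13, 11 and 7 counts in CD201+CD48-, 11, 13 and 19 in CD201+CD48+ and 5, 6 and 8 in CD201- replicates 1 to 3. In CPM these were 2.30, 2.78 and 1.55, then 1.88, 2.46 and 2.61, then 1.11, 1.29 and 1.75. CD201+CD48+ libraries lay above CD201- libraries, and CD201+CD48- libraries overlapped both. No CD201- library reached the level set by the count filter, so that the testing of Itga9 rested on the CD201+ libraries. The log2 fold changes of 0.66 ± 0.41 and 0.74 ± 0.38 over the CD201- population and -0.09 ± 0.35 within CD201+ did not pass (SE; edgeR adjusted p = 0.201, 0.163 and 0.908).

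Itgb2 (chromosome 10, 77530329 to 77565708), the beta chain of the leukocyte integrins, was highest in CD201- replicates 1 to 3, at 85.7, 82.2 and 89.6 CPM. CD201+CD48- replicates held 72.9, 65.9 and 63.8 CPM and CD201+CD48+ replicates 62.5, 61.0 and 57.5 CPM. The 3 populations did not overlap. Against the CD201- population the log2 fold change was -0.34 ± 0.08 for CD201+CD48- (SE; edgeR adjusted p = 0.00338) and -0.51 ± 0.08 for CD201+CD48+ (adjusted p = 0.000338). Scaled by library size alone, the first fell short of the threshold (-0.17, adjusted p = 0.106). Within CD201+ the value of 0.17 ± 0.08 did not pass (adjusted p = 0.213). Summed over 13 neutrophil and macrophage markers, the level was 24.2 to 26.6 CPM in CD201+CD48-, 14.6 to 18.6 CPM in CD201+CD48+ and 21.7 to 25.7 CPM in CD201- libraries, with S100a9 and Ly6g at 0 in all groups. Single markers ran in opposite directions. Mpo averaged 0, 1.24 ± 0.440 and 10.2 ± 1.84 CPM (SD, n = 3) in CD201+CD48-, CD201+CD48+ and CD201- libraries. Ltf averaged 8.16 ± 2.27, 5.10 ± 1.16 and 0.948 ± 0.674 CPM in the same order. The part of these markers in the Itgb2 result was not tested. Of 11 mast cell and basophil markers the sum was 5.09 to 9.60, 3.58 to 4.91 and 35.9 to 44.3 CPM, highest in the CD201- libraries as Itgb2 was. Gzmb (31.9 ± 4.27 CPM there; SD, n = 3), which other cells express as well, and Cpa3 (6.78 ± 0.649 CPM) made up most of it, while Mcpt4, Tpsb2, Tpsab1, Cma1 and Prss34 were at 0 in the CD201- libraries.

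Itgal, the alpha chain that joins the Itgb2 chain in LFA-1, was also highest in the CD201- population. It averaged 11.9 ± 1.26, 18.1 ± 1.41 and 50.8 ± 2.56 CPM (SD, n = 3) in CD201+CD48-, CD201+CD48+ and CD201- libraries. The log2 fold change was -2.09 ± 0.12 and -1.49 ± 0.11 against the CD201- population (SE; edgeR adjusted p = 3.4e-09 and 1.73e-07). Itgax and Itgad, further leukocyte alpha chains, and Itgae, which pairs with the Itgb7 chain, did not pass the count filter. Itgam, another alpha chain that joins the Itgb2 chain, had no row in the count table and could not be assessed.

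Itgb7 (chromosome 15, 102215994 to 102233405), the beta chain of gut-homing lymphocyte integrins, drew 15 to 35 counts per library. Its level was 6.18, 4.04 and 5.31 CPM in CD201+CD48-, 4.61, 3.59 and 3.44 CPM in CD201+CD48+ and 5.98, 5.38 and 3.29 CPM in CD201- replicates 1 to 3. All populations overlapped. The log2 fold changes of 0.11 ± 0.28 and -0.33 ± 0.29 over the CD201- population and 0.44 ± 0.28 within CD201+ did not pass (SE; edgeR adjusted p = 0.78, 0.406 and 0.329).

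**Figure D2:**
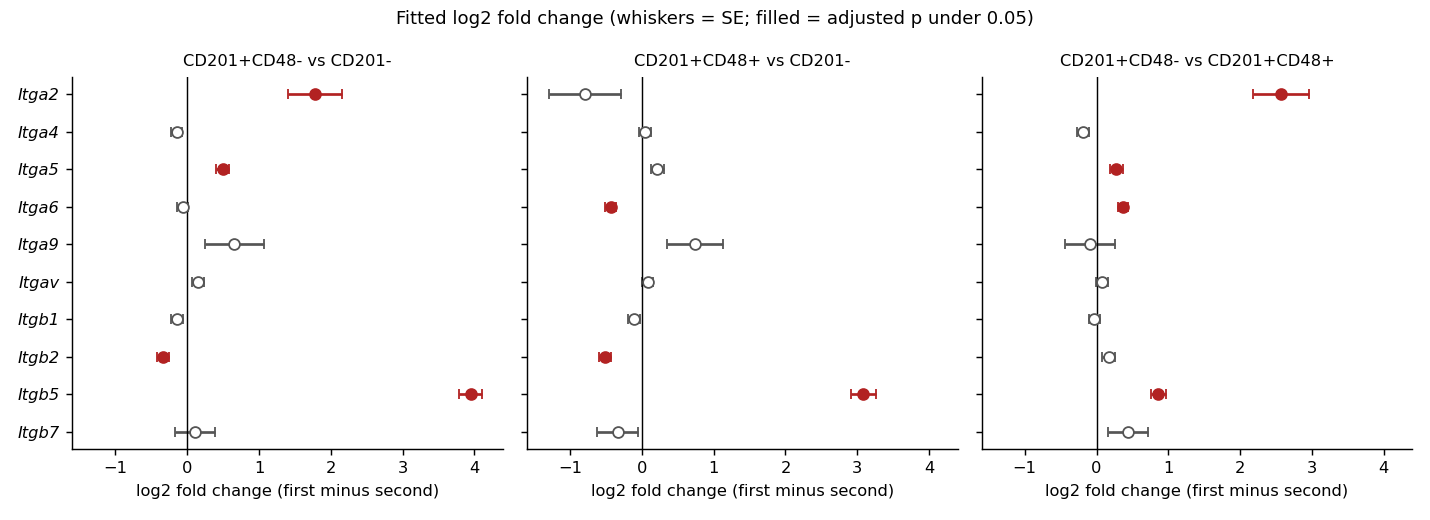
Fitted log2 fold change (horizontal axis, first named population minus the second) of each of the 10 genes (vertical axis) in the 3 comparisons (panels), with whiskers for the SE and filled points where the adjusted p is under 0.05. Itgb5 stands at 3.95, 3.09 and 0.86, and the whiskers of Itga2, Itga9 and Itgb7, the genes with few counts, are the widest.

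Levels of different genes were compared per length only. With the union of exons of GENCODE M39 as length, the order in CD201+CD48- libraries began with Itgb1 at 69.4 ± 2.43 CPM per kb (SD, n = 3), Itga6 at 29.3 ± 1.91, Itgb2 at 20.8 ± 1.47, Itga4 at 20.4 ± 0.905 and Itga5 at 14.4 ± 0.133. Itgb5 at 8.34 ± 0.527, Itgav at 5.21 ± 0.176, Itgb7 at 1.78 ± 0.370, Itga2 at 0.601 ± 0.0424 and Itga9 at 0.286 ± 0.0801 CPM per kb followed. Itgb2 and Itga4 were neighbours whose mean ± SD overlapped, and no other neighbours did. In CD201+CD48+ libraries the overlapping neighbours were Itga4 (23.2 ± 0.728 CPM per kb) with Itga6 (22.6 ± 0.238) and Itgav (4.96 ± 0.199) with Itgb5 (4.57 ± 0.484). In CD201- libraries Itgb5, at 0.535 ± 0.121 CPM per kb, ranked below Itgb7 (1.68 ± 0.487), and only Itga9 (0.179 ± 0.0431) and Itga2 (0.174 ± 0.0890) overlapped.

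The order depends on the length. With the canonical transcript, a choice made after the data were seen, Itga6 reached 75.5 ± 4.92 CPM per kb in CD201+CD48- libraries and overlapped Itgb1 at 82.7 ± 2.90, and Itga4 ranked above Itgb2 in all 3 populations. Of the level per kb of the 4 beta chains, Itgb5 held 8.31% ± 0.566 in CD201+CD48-, 4.81% ± 0.691 in CD201+CD48+ and 0.512% ± 0.136 in CD201- libraries (SD, n = 3, union of exons). With the canonical transcript its shares were 14.1% ± 0.892, 8.40% ± 1.17 and 0.928% ± 0.245. Of the 6 alpha chains, Itga6 held 41.7% ± 0.847, 35.9% ± 0.153 and 44.7% ± 1.04 of the level per kb, and Itga4 29.0% ± 0.104, 36.8% ± 1.29 and 33.0% ± 2.03, in the same order of populations. With the canonical transcript Itga6 held 55.2% ± 0.804, 48.4% ± 0.333 and 57.4% ± 1.19 and Itga4 25% ± 0.177, 32.4% ± 1.05 and 27.6% ± 1.75, so that Itga4 no longer matched Itga6 in CD201+CD48+ libraries. Shares add up within a chain type, so that a lower share of one raises the others. They cover these 6 alpha and 4 beta chains only. Chains left out include Itga2b and Itgb3, whose levels differed between the populations.

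**Figure D3:**
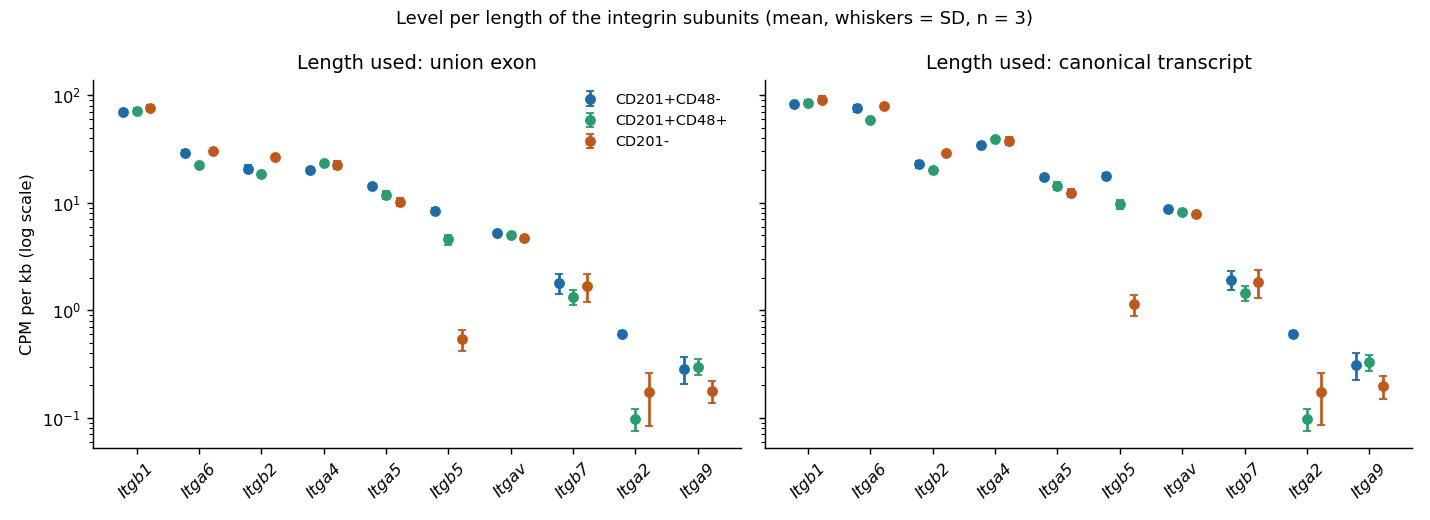
Level per length in CPM per kb (vertical axis, log scale) of the 10 genes (horizontal axis) in the 3 populations, as mean with whiskers for the SD of 3 replicates, with the union of exons (left) or the canonical transcript (right) as length. Itgb1 is at the top, Itga2 and Itga9 are at the bottom, and the CD201- point of Itgb5 lies far below its CD201+ points in both panels.

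Of 17 other integrin subunits listed, 16 had a row in the table and 5 were tested. Over the CD201- population, CD201+CD48- cells had 2 higher and 2 lower and CD201+CD48+ cells 1 higher and 3 lower, and within CD201+ the CD48- population had 3 higher and 1 lower. That is 4 of 5 in each comparison, where 48.1%, 29.1% and 15.4% of all genes were called. Scaled by library size alone, the first 2 lower became 1, and over all alternatives they ran from 1 to 3. The 3 lower in CD201+CD48+ cells ran from 3 to 4. Itga3, another laminin receptor chain, had the order of Itgb5, with 12.2 ± 1.58, 5.50 ± 1.76 and 0.949 ± 0.344 CPM (SD, n = 3) in CD201+CD48-, CD201+CD48+ and CD201- libraries. Its log2 fold change over the CD201- population was 3.65 ± 0.34 and 2.5 ± 0.38 (SE; edgeR adjusted p = 5.62e-07 and 0.000194). The CD201- mean of Itga3 lay under the 1.92 CPM set by the count filter, so that its being tested rested on the CD201+ libraries. Calls of genes tested in this way are part of the list counts here and below. The platelet chains Itga2b (298.2 ± 5.22, 79.1 ± 6.80 and 356.1 ± 16.9 CPM) and Itgb3 (235.1 ± 39.3, 31.2 ± 1.33 and 66.6 ± 2.71 CPM) were lowest in CD201+CD48+ libraries, where Itga6 was lowest too. Itgb4 passed in no comparison, at 1.96 ± 1.05, 1.67 ± 0.965 and 0.949 ± 0.561 CPM. The other 11 drew 1 to 68 counts each over all 9 libraries.

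Of 35 integrin ligands listed, 17 were tested. Over the CD201- population, CD201+CD48- cells had 8 higher and 3 lower (median log2 fold change 0.23), and CD201+CD48+ cells 6 higher and 4 lower (median 0.11). Within CD201+, 6 were higher in the CD48- population and 0 lower (median 0.24), or 1 lower without CD201- replicate 3. The 11, 10 and 6 of 17 called compare with 48.1%, 29.1% and 15.4% of all genes. Lamb2, a laminin chain, averaged 44.8 ± 2.65, 15.5 ± 2.69 and 0.869 ± 0.861 CPM (SD, n = 3) in CD201+CD48-, CD201+CD48+ and CD201- libraries and passed in all 3 comparisons. With a CD201- mean under the filter level of 1.92 CPM, Lamb2 was tested through the CD201+ libraries. Icam1, a ligand of the Itgb2 integrins, averaged 67.6 ± 5.59, 46.0 ± 3.22 and 23.0 ± 2.56 CPM and passed in all 3 as well, with its lowest level in the population where Itgb2 and Itgal were highest. The thrombospondin gene Thbs1 averaged 149.8 ± 28.3, 2.5 ± 0.552 and 26.6 ± 3.04 CPM, lowest in CD201+CD48+ libraries. Fn1, the fibronectin gene, averaged 37.8 ± 5.62, 31.9 ± 6.40 and 69.8 ± 4.70 CPM. It was lower than in the CD201- population in CD201+CD48- (-0.89 ± 0.14 on the log2 scale, SE; edgeR adjusted p = 7.71e-05) and in CD201+CD48+ cells (-1.13 ± 0.14, adjusted p = 2.06e-05), and did not pass within CD201+ (0.24 ± 0.14, adjusted p = 0.301). Vcam1, Madcam1, Vtn and Tnc, which encode ligands of the Itga4, Itgb7, Itgb5 and Itga9 receptors, did not pass the count filter.

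Of 22 activators and regulators of integrins listed, 20 were tested. Over the CD201- population, CD201+CD48- cells had 4 higher and 2 lower, and CD201+CD48+ cells 1 higher and 5 lower (median log2 fold change 0.04 and 0.01). Within CD201+, 4 were higher in the CD48- population and 0 lower (median 0.13). The 6, 6 and 4 of 20 called were below or near the 48.1%, 29.1% and 15.4% of all genes. Tln1 encodes talin, which switches integrins on by binding the beta tail, and averaged 1955 ± 74.9, 1424 ± 141.0 and 1923 ± 33.3 CPM (SD, n = 3) in CD201+CD48-, CD201+CD48+ and CD201- libraries. The kindlin gene Fermt3 averaged 361.4 ± 6.66, 294.6 ± 27.3 and 409.4 ± 2.61 CPM and the GTPase gene Rap1b 228.1 ± 0.950, 172.0 ± 10.6 and 268.6 ± 26.8 CPM. Tln1, Fermt3 and Rap1b were all lower in CD201+CD48+ cells than in each other population. Fermt2, the other kindlin gene tested, averaged 3.31 ± 1.29, 1.34 ± 0.325 and 0.217 ± 0.215 CPM. Over the CD201- population its log2 fold change was 3.74 ± 0.65 and 2.46 ± 0.75 (SE, edgeR adjusted p = 0.000215 and 0.0233). Only its CD201+CD48- mean exceeded the filter level of 1.92 CPM, so its being tested rested on those libraries. Rap1gap, whose product turns Rap1 off, averaged 10.5 ± 0.980, 4.16 ± 0.938 and 2.48 ± 1.34 CPM and was higher in the CD201+CD48- population than in each other one. Leaving out CD201+CD48- replicate 3 cut the first 4 and 2 to 2 and 0, leaving out CD201+CD48- replicate 1 or 2 cut the 2 lower to 1, and leaving out CD201- replicate 3 raised them to 5. The 1 higher in CD201+CD48+ cells became 2 without CD201- replicate 3 and 0 without CD201+CD48+ replicate 1 or 2, and the 4 and 0 within CD201+ became 8 and 1 without CD201- replicate 3. Scaled by library size alone, the 2 lower became 0 in CD201+CD48- cells, and the 1 higher and 5 lower became 3 and 3 in CD201+CD48+ cells.

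Of 30 adhesion signalling genes listed, 28 were tested. Over the CD201- population, CD201+CD48- cells had 9 higher and 7 lower, and CD201+CD48+ cells 3 higher and 8 lower (median log2 fold change 0.06 and -0.16). Within CD201+, 11 were higher in the CD48- population and 2 lower (median 0.17), and 7 higher without CD201+CD48- replicate 1 or CD201+CD48+ replicate 3. The 2 lower became 1 when any single CD201+CD48- replicate was left out, and likewise without CD201+CD48+ replicate 1 or 2. The 16, 11 and 13 of 28 called compare with 48.1%, 29.1% and 15.4% of all genes. Ptk2, the focal adhesion kinase gene, had the order of Itgb5, with 63.3 ± 0.997, 38.8 ± 1.67 and 18.5 ± 3.42 CPM (SD, n = 3) in CD201+CD48-, CD201+CD48+ and CD201- libraries. Its log2 fold change over the CD201- population was 1.77 ± 0.12 and 1.07 ± 0.12 (SE; edgeR adjusted p = 1.61e-08 and 1.32e-05). The kinase gene Src averaged 8.95 ± 1.46, 2.49 ± 0.507 and 1.02 ± 0.439 CPM, in the same order. With a CD201- mean under the filter level of 1.92 CPM, Src was tested through the CD201+ libraries. Of the parvin genes, whose products join integrins to actin, Parvb averaged 26.3 ± 4.74, 1.60 ± 0.290 and 4.81 ± 0.816 CPM and Parvg 98.9 ± 2.01, 129.8 ± 9.80 and 190.1 ± 11.1 CPM. CD201+CD48- cells had more Parvb and less Parvg than each other population, and CD201+CD48+ cells had less of both than the CD201- population. The vinculin gene Vcl averaged 192.8 ± 10.7, 129.3 ± 6.97 and 181.4 ± 15.5 CPM and was lower in CD201+CD48+ cells than in each other population. Scaling by library size alone turned the 9 higher and 7 lower into 15 and 4, and the 3 higher into 8.

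**Figure D4:**
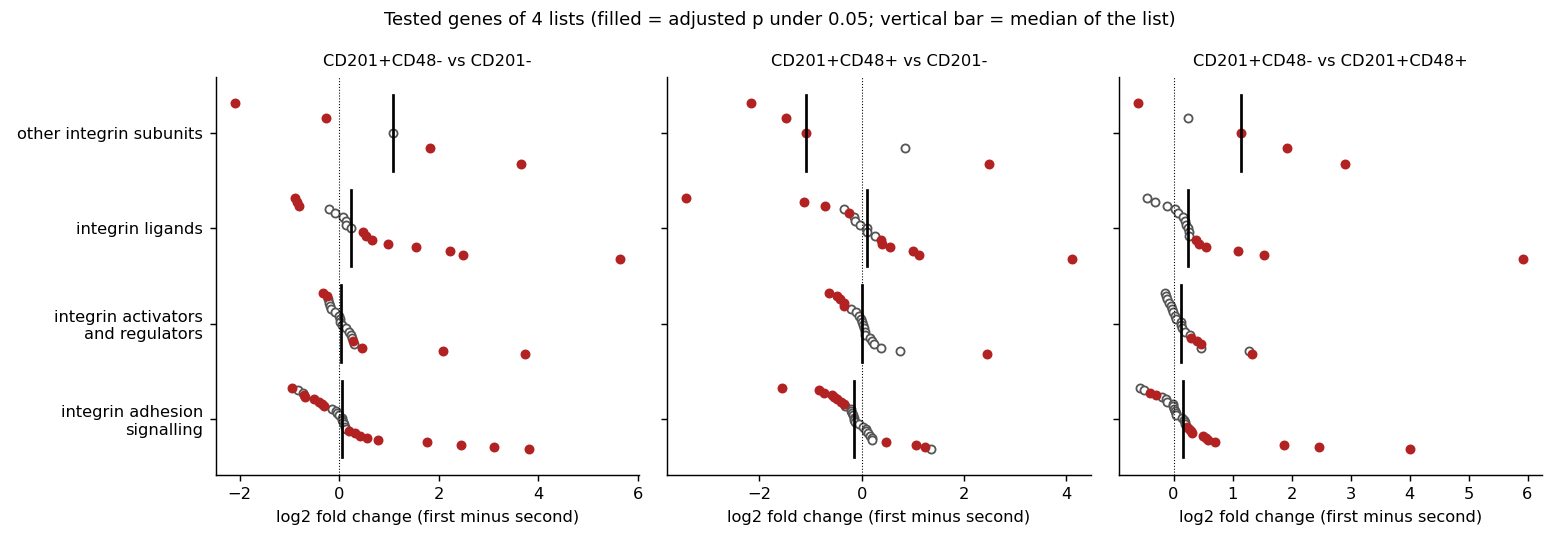
Log2 fold change (horizontal axis, first named population minus the second, with a range of its own in each panel) of the tested genes of 4 lists (vertical axis) in the 3 comparisons; each point is a gene, filled where the adjusted p is under 0.05 and spread vertically by rank, and the bar is the median of the list. Medians of the ligand, activator and signalling lists lie between -0.16 and 0.24, while single genes lie far from them.

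The tested genes with the pattern most like that of Itgb5, by Pearson correlation of log2 CPM over the 9 libraries, were Sept10 (r = 0.996), Prex2 (r = 0.996) and Fam134b (r = 0.995). Prex2 averaged 93.9 ± 3.27, 57.6 ± 0.984 and 12.3 ± 0.341 CPM and Fam134b 124.6 ± 5.15, 98.0 ± 3.14 and 47.6 ± 5.07 CPM (SD, n = 3) in CD201+CD48-, CD201+CD48+ and CD201- libraries. Sept10 was scarce, at 7.13 ± 0.527, 4.57 ± 0.526 and 0.0717 ± 0.124 CPM in the same order. Its CD201- level was at the floor, so it was tested through the CD201+ libraries. The 9 libraries fall into 3 populations, so the correlation mostly repeats the order of the group means and is given as a description. Of the other 9 integrin genes, r with Itgb5 was highest for Itga5 (0.86) and lowest for Itgb2 (-0.83).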

How the data were processed

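The authors deposited whole-number counts per gene symbol for the 9 libraries. Per the labels' protocols, RNA was taken up in Trizol LS, amplified as cDNA by a SMARTer kit and read in pairs of 36 nt. The submitters' processing notes name mm10 and DESeq2. Aligner, counter, annotation and strand setting: not given in the sources used here. A deposited normalized table and 3 columns of the count table that match no sample were not used.

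In R 4.3.3, filterByExpr of edgeR 4.0.16 (minimum count 10) kept 11619 of 49585 genes. TMM factors and the robust quasi-likelihood F test (all 9 samples, group as the only term) followed, with Benjamini-Hochberg adjustment over all genes tested. SE was taken as |log2 fold change| / sqrt(F). The fit was also run on counts simulated from its own estimates of spread. Such counts hold no deviating library, so that run cannot speak to CD201- replicate 3. Groups came from the labels. Alternatives were DESeq2 1.42.0, other scalings and count minimums, fits of 2 groups, a replicate block and the removal of each library.

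The text names all 10 integrin genes, the sorted antigens, the 3 genes most correlated with Itgb5, and genes from up to 5 per list and comparison with the smallest p. Genes named for not passing the count filter were picked after their values were seen. Members and lists were chosen with earlier results of these data known. Positions are RefSeq's for GRCm38.p6, and lengths are from GENCODE M39 (GRCm39). Cerkl overlaps Itga4 and drew 192 counts over all libraries. With the strand setting unknown, reads of the pair may not be told apart.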

Additional observations from a re-analysis of the deposited data

How the results depend on the processing

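Over 16 alternatives, 9 of which leave out a library, few counts of integrin genes called moved by more than 1.5 times. Loss of the Itga5 call within CD201+, in 11 of the 16, falls under that size. Scaling by library size alone moved the median of all genes by 0.17 and 0.13 on the log2 scale over the CD201- population. It gave 0 in place of 1 lower gene in CD201+CD48- cells, and in CD201+CD48+ cells 5 in place of 3 genes called, 3 in place of 1 of them higher. All genes then split into 3974 higher and 1685 lower (2807 and 2778 with TMM) and 2701 and 851 (1723 and 1661). Within CD201+, 1 in place of 0 was lower (Itga4) in a fit of those groups alone and without CD201- replicate 3, and 0 to 1 when single libraries were left out. There a fit of those groups alone called 1763 higher and 1576 lower of all genes, and the full fit without CD201- replicate 3 called 1822 and 1712 (1052 and 733 with it).

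The sign turned in 11 values of integrin genes, and none of these passed the test in either setting. With library size alone they were Itga4 (0.0250), Itga6 (0.107) and Itgb1 (0.0292) in CD201+CD48- against CD201- cells, and Itgb1 in the other comparisons (0.0233 and, within CD201+, 0.00583). Leaving out single libraries gave -0.00908 to 0.114 for Itga4 in CD201+CD48+ against CD201- cells, -0.250 to 0.103 for Itga9 and -0.0788 to 0.0110 for Itgb1 within CD201+, and -0.106 to 0.273 for Itgb7 in CD201+CD48- against CD201- cells. The cause was not tested. A minimum count of 30 removed Itga2, Itga9 and Itgb7, and fits of 2 groups removed Itga2 or Itga9 from 1 comparison each. Low counts limit these 3 genes most.

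Replicate numbers are shared by the groups, but same-numbered libraries did not deviate together (r from -0.113 to 0.0447 over 9 pairs, and 0 of 9 libraries correlated best with their own number). With the replicate block 4, 3 and 3 integrin genes were called, against 4, 3 and 4 without it.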
